A study of Mus musculus with 15 samples.

Results

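Adipoq, Cfd, Car3, Plin1, Plin4, Cidea, Cidec, Retn, Lep and Ucp1 are genes known for their high expression in adipocytes, and their transcripts were followed in 15 RNA-seq libraries of whole mouse lung. They are 10 of the 33340 genes in the count table, matched by symbol. They were selected on their levels over days and within days in these same libraries, so that their values and fold changes are given as a description. How the fit across all genes called them is listed once, and nothing is supported with it. The lungs came from C57BL/6 mice, described in the methods as males aged 10 to 12 weeks. Day 0 is the untreated group with 4 libraries, and the treated groups were collected 7, 14 and 21 days after intratracheal instillation of bleomycin at 5 U/kg under tribromoethanol anaesthesia, with 4, 4 and 3 libraries. These numbers follow the sample titles, whereas the design text of the series gives 3 replicates for each day. Bleomycin is a DNA-damaging drug that injures the lung epithelium and endothelium and is used to model pulmonary fibrosis. Day 0 replicate 4 is titled a control while its treatment field names bleomycin, and it was kept at day 0 by its title.

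White adipocytes store triglyceride in a single large lipid droplet and secrete hormones, whereas brown adipocytes hold many small droplets and burn fat to make heat through Ucp1, a proton carrier of the inner mitochondrial membrane. Adipoq encodes adiponectin, Retn resistin and Lep leptin, which are hormones made by fat. Cfd encodes adipsin, a serine protease that cleaves factor B in the alternative complement pathway and is a major secreted product of fat. Plin1 and Plin4 encode perilipins, proteins that coat lipid droplets, Cidec and Cidea encode proteins that fuse droplets into larger ones, and Car3 encodes a cytosolic carbonic anhydrase abundant in fat and in slow muscle. Whole lung is dissected next to the heart and the mediastinal fat, and a bulk library cannot tell fewer cells of a type from less RNA per cell.

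The promoters of 5 of these genes are shown because the first 4 varied together from library to library while Cidec did not. Each is the 250 bases before the RefSeq start of the gene in GRCm38.p6, written along the strand of the gene from 5′ to 3′, with matches to the searched motifs in capitals. Adipoq lies on the plus strand at chr16:23146286-23146535, Plin1 on the minus strand at chr7:79732777-79733026, Cfd on the plus strand at chr10:79890603-79890852, Retn on the plus strand at chr8:3655520-3655769 and Cidec on the minus strand at chr6:113434765-113435014.
Adipoq: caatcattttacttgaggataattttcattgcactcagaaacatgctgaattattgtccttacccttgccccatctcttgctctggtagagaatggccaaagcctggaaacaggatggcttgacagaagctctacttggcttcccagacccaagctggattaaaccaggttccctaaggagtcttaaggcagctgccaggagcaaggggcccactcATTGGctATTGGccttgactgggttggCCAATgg
Plin1: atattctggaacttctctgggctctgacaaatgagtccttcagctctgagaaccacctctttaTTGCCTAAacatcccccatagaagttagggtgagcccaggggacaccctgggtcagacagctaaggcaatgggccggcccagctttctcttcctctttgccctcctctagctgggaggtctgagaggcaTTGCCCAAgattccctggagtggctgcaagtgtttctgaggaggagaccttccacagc
Cfd: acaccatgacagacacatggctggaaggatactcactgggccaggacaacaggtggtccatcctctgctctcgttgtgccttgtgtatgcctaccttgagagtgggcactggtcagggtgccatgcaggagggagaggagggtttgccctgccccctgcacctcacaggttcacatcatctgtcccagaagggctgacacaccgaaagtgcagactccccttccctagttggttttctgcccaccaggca
Retn: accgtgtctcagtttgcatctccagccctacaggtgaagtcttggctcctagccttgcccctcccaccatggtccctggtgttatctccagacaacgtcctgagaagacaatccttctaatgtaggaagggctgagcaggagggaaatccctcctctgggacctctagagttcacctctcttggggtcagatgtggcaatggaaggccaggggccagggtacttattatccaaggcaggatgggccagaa
Cidec: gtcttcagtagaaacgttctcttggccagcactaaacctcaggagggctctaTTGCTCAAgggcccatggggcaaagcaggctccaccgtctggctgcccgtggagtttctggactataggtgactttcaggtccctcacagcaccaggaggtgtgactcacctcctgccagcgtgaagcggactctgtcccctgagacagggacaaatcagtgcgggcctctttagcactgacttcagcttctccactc
The motifs searched on both strands were the PPAR half-site AGGTCA, 2 copies of it 1 base apart, the C/EBP sequence TTGCNNAA, the CCAAT box and the TATA box TATAAA. PPAR gamma and C/EBP alpha are the main transcription factors of adipocytes. Adipoq held the CCAAT letters 3 times, at positions -34, -27 and -7 counted back from the start, and Plin1 held the C/EBP letters at -187 and -58. No searched motif was found in the Cfd and Retn windows. Cidec has 2 RefSeq starts, and the one shown held the C/EBP letters at -198 while the other window held none of the motifs. Of 32851 promoters of this length, 33.8% held CCAAT, 9.56% TTGCNNAA, 14.0% AGGTCA, 12.4% TATAAA and 0.0335% the pair of half-sites. Ucp1 held AGGTCA at -14, Lep the C/EBP letters at -55 and Plin4 CCAAT at -18. A match is a description of these letters only.

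Library sizes ran from 15652008 to 18020661 counts, and 3 counts, taken here as the limit of detection, corresponded to 0.166 to 0.192 CPM, the unit of counts scaled to the total of the library. Markers of lung cells were abundant in every library, but their sum went from 53100 to 68700 CPM at day 0 to 26800 to 36300, 13800 to 27800 and 9920 to 14700 CPM at days 7, 14 and 21. Day 7 replicate 4 and day 21 replicate 1 stood apart in 14 genes of cardiac muscle, whose summed level was 699 and 820 CPM against 29.9 to 319 CPM in the other 13 libraries. The main values that rest on these libraries are also given without them. The labels do not say that the libraries of a day came from separate animals, so the p-values below measure the spread between these libraries.

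Adipoq was above the detection limit in 3 of the 4 control lungs and in none at day 14. At day 0 it stood at 0.129, 1.21, 1.33 and 2.28 CPM in replicates 1 to 4, and at day 7 at 0.453, 0.390, 0.823 and 5.40 CPM. At day 14 it was at 0 in 3 libraries and at 0.114 CPM, 2 counts, in replicate 3, and at day 21 it was 0.309, 0.114 and 0.118 CPM. Day 0 replicate 1 was thus close to the level of days 14 and 21, the day 0 and day 7 libraries overlapped, and all day 14 libraries lay below all day 0 libraries, although day 14 replicate 3 and day 0 replicate 1 had 2 counts each. Pooled over libraries, the day 14 level was 2.32% of day 0 with a 95% counting interval of 0.277% to 8.66%, and the day 21 level was 13.9% (6.13% to 27.6%). Here and below, such intervals cover counting error only.

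Cfd was the most abundant of the 10 transcripts per unit of length in day 7 replicate 4, at 208 TPM (transcripts scaled for length and depth), followed by Car3 at 43.0 TPM and Cidec at 14.8 TPM. Cfd was 0.582, 10.5, 30.4 and 26.8 CPM in day 0 replicates 1 to 4. At day 7 it was 2.49, 3.07, 12.7 and 71.2 CPM. The span from the lowest to the highest library was thus 52.2-fold at day 0 and 28.6-fold at day 7, or 5.09-fold at day 7 without replicate 4. At day 14 Cfd was 0.295, 0, 0.0572 and 0.362 CPM, and at day 21 it was 1.42 CPM in replicate 1 and at 0 in the others. Every day 14 library was below every day 0 library, and the pooled level was 1.03% of day 0 (0.528% to 1.80%). At day 21 the pooled level was 2.61% (1.65% to 3.93%), and all 23 counts of that day came from replicate 1.

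Car3 ranked the libraries within day 0 and within day 7 as Cfd did. Its level was 0.647, 11.3, 17.2 and 14.4 CPM at day 0 and 1.13, 1.78, 7.85 and 45.8 CPM at day 7. It was 0.295, 0.0637, 0.171 and 0 CPM at day 14 and 0.494, 0 and 0.176 CPM at day 21. All libraries of days 14 and 21 lay below all of day 0, at pooled levels of 1.21% (0.551% to 2.31%) and 1.96% (0.975% to 3.53%) of day 0. Of the 11 counts at day 21, 8 were from replicate 1, without which the fitted log2 fold change of Car3 was -6.89 in place of -5.59. The proportion of Car3 to Cfd could be read in 8 libraries with at least 20 counts of the pair. Car3 made up 31.2% to 39.2% of the counts of the pair in day 0 replicates 3 and 4 and in all 4 day 7 libraries. Day 0 replicate 2 differed, with 51.8% (Wilson 95% interval 46.7% to 56.9%), and day 21 replicate 1 had 25.8% (13.7% to 43.2%).

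Plin1, the perilipin of adipocyte droplets, was likewise lowest in replicate 1 at day 0 and highest in replicate 4 at day 7. It was 0.194, 1.45, 2.60 and 2.45 CPM at day 0 and 0.566, 0.390, 1.32 and 4.51 CPM at day 7. At day 14 it was between 0 and 0.191 CPM and at day 21 between 0.114 and 0.411 CPM. The day 14 libraries were all below day 0, closely so for replicate 2, which had 3 counts as did day 0 replicate 1, with a pooled 4.36% (1.39% to 10.5%), whereas those of day 21 overlapped day 0 because of day 0 replicate 1. Retn was 0.259, 0.785, 1.65 and 0.947 CPM at day 0, and at day 7 it was 0, 0.0558, 0.274 and 2.67 CPM. At days 14 and 21 no library exceeded 0.255 CPM, and all lay below day 0, although day 14 replicate 2 and day 21 replicate 2 had 4 counts each, as did day 0 replicate 1. The pooled level of Retn was 11.4% of day 0 (4.39% to 24.9%) at day 14 and 17.3% (7.13% to 36.3%) at day 21.

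**Figure D1:**
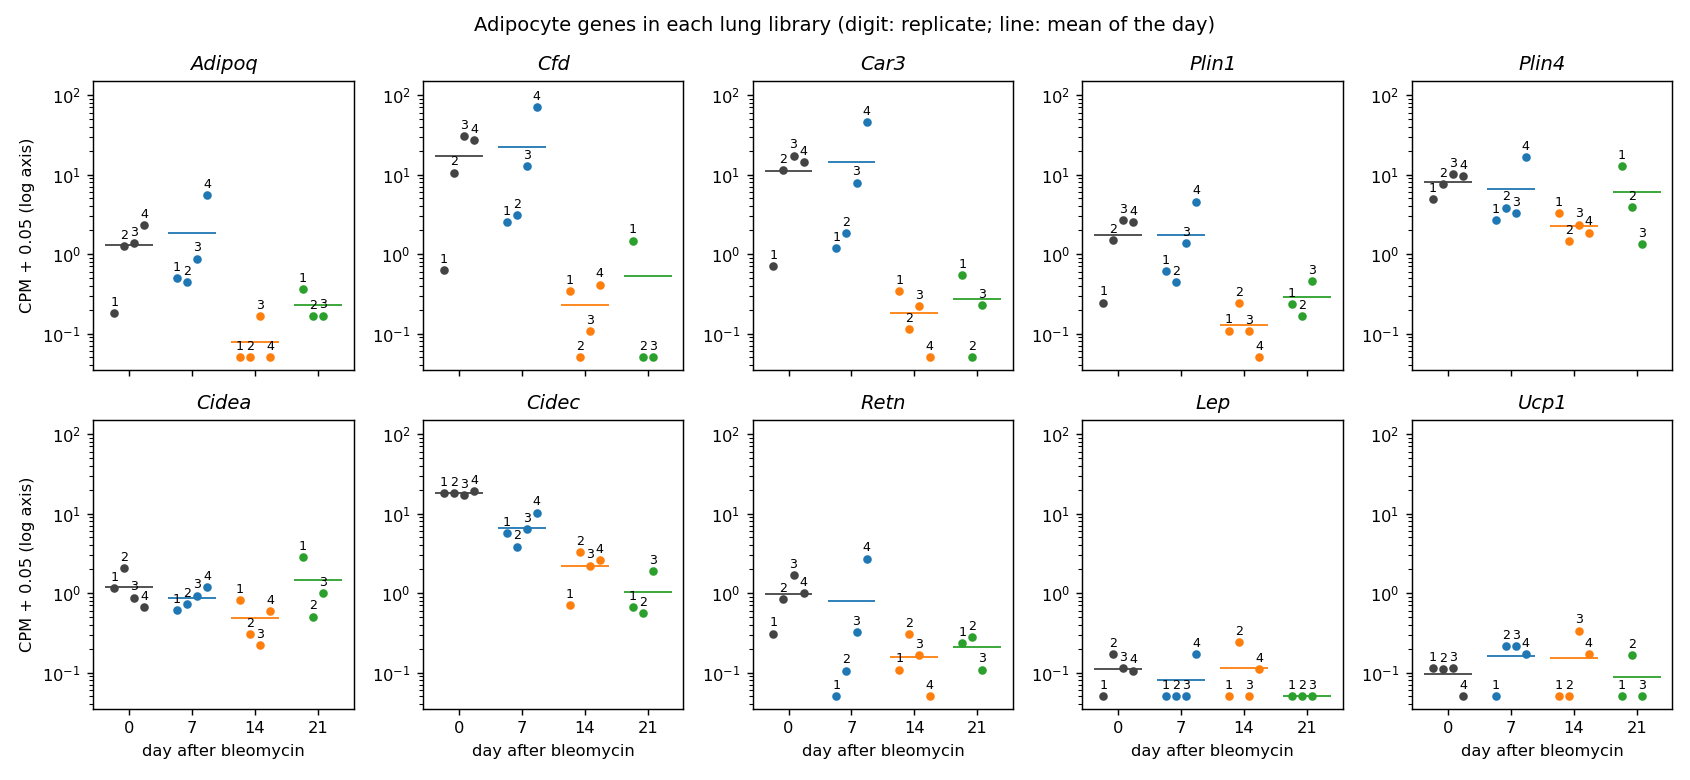
Level of the 10 adipocyte genes in each of the 15 libraries, in CPM plus 0.05 on a log axis, by day after bleomycin, with the replicate number at each point and the mean of the day as a line. Cfd ranged from 0.582 to 30.4 CPM among day 0 libraries while Cidec stayed between 17.1 and 19.3 CPM, and Lep and Ucp1 were near 0 throughout.

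The summed level of Adipoq, Cfd, Car3, Plin1 and Retn was 1.81, 25.2, 53.1 and 46.8 CPM in day 0 replicates 1 to 4 and 4.64, 5.69, 22.9 and 130 CPM at day 7. It was 0.362 to 0.708 CPM at day 14 and 0.455 to 2.59 CPM at day 21. The order of the days was not that of a steady decline, since the highest library was of day 7 and since day 0 replicate 1 was below all day 7 libraries. Without day 7 replicate 4, the fitted log2 fold changes at day 7 of Adipoq, Cfd, Car3 and Plin1 were -1.16, -1.49, -1.60 and -1.14, and with it they were 0.49, 0.39, 0.37 and 0.01. The direction of the day 7 difference also turned for Cfd, Car3 and Plin1 without day 0 replicate 1, at -0.05, -0.05 and -0.39. With the replicate number as a block Cfd and Car3 were at -0.39 and -0.45 and Plin1 at -0.16. Once the mitochondrial share entered the fit, Adipoq, Cfd, Car3 and Plin1 were at 1.75, 2.40, 1.32 and 0.95 instead. That share was 2.28%, 2.31%, 4.22% and 4.05% of counts in day 0 replicates 1 to 4. At day 7 it was 2.03% to 2.15%, below every day 0 library, so the share and the day cannot be fully told apart. No direction at day 7 can be given for these genes. Retn went from -0.29 to -2.96 without day 7 replicate 4.

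Cidec behaved otherwise. Its level was 18.2, 18.2, 17.1 and 19.3 CPM in the 4 day 0 libraries, a mean of 18.2 ± 0.882 CPM (SD, n = 4), and it was as high in replicate 1, where Cfd was lowest, as in the others. At day 7 it was 5.66, 3.79, 6.31 and 10.2 CPM, at day 14 it was 0.649, 3.25, 2.17 and 2.53 CPM, and at day 21 it was 0.618, 0.512 and 1.82 CPM. Every later library of Cidec was thus below every day 0 library, and the highest day 14 library was below the lowest of day 7. The libraries of days 14 and 21 overlapped. The pooled level was 35.2% of day 0 (31.5% to 39.2%) at day 7, 11.6% (9.64% to 13.8%) at day 14 and 5.40% (3.98% to 7.16%) at day 21. The corresponding log2 fold changes were -1.49 ± 0.39, -3.08 ± 0.42 and -4.20 ± 0.51 (SE), and the last was -5.04 without day 21 replicate 3. Per unit of length Cidec was 24.0 TPM in day 0 replicate 1, where Cfd was 1.54 TPM and Adipoq 0.229 TPM.

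Among the counts of Cidec and Cfd together, Cidec made up 96.9% (Wilson 95% interval 94.2% to 98.4%) in day 0 replicate 1, 36.0% (32.7% to 39.5%) in day 0 replicate 3 and 12.6% (10.9% to 14.4%) in day 7 replicate 4. The intervals cover counting error within a library, and the difference between libraries was not tested.

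Plin4, a perilipin also made in muscle, was 4.91, 7.61, 10.1 and 9.42 CPM at day 0 and 2.60, 3.79, 3.24 and 16.6 CPM at day 7. It was 3.19, 1.40, 2.29 and 1.81 CPM at day 14 and 12.7, 3.81 and 1.29 CPM at day 21. Plin4 was therefore highest in day 7 replicate 4 and day 21 replicate 1, the libraries that were highest in cardiac genes, and all day 14 libraries were below day 0, at a pooled 26.8% (22.2% to 32.3%). Cidea, known for its abundance in brown fat, was 1.10, 1.99, 0.824 and 0.613 CPM at day 0, and lay between 0.566 and 1.13 CPM at day 7 and between 0.171 and 0.767 CPM at day 14. At day 21 it was 2.78, 0.455 and 0.940 CPM, and the libraries of every later day overlapped day 0. Its highest library was day 21 replicate 1, where Cfd was 1.42 CPM. Leaving out that library moved the fitted day 21 log2 difference of Plin4 from -0.44 to -1.68 and that of Cidea from 0.29 to -0.73. Without day 7 replicate 4, that of Plin4 at day 7 was -1.32 in place of -0.29.

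Leptin and Ucp1 transcripts were at the limit of detection. Lep had at most 3 counts in any library, 10 in all, and was at 0 in 9 libraries. Ucp1 had at most 5 counts, in day 14 replicate 3, 20 in all, and was at 0 in 6 libraries. In day 7 replicate 4, where Adipoq had 91 counts, Lep and Ucp1 had 2 each, and Ucp1 was thus 2.15% of the counts of Ucp1 and Adipoq together (Wilson 95% interval 0.592% to 7.51%). Per unit of length the levels there were 10.5 TPM for Adipoq, 0.195 TPM for Ucp1 and 0.0953 TPM for Lep. A change of Lep or Ucp1 with time was not detectable at this depth, since the pooled day 7 level of Ucp1, for example, was 247% of day 0 with an interval of 59.3% to 1450%.

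**Figure D2:**
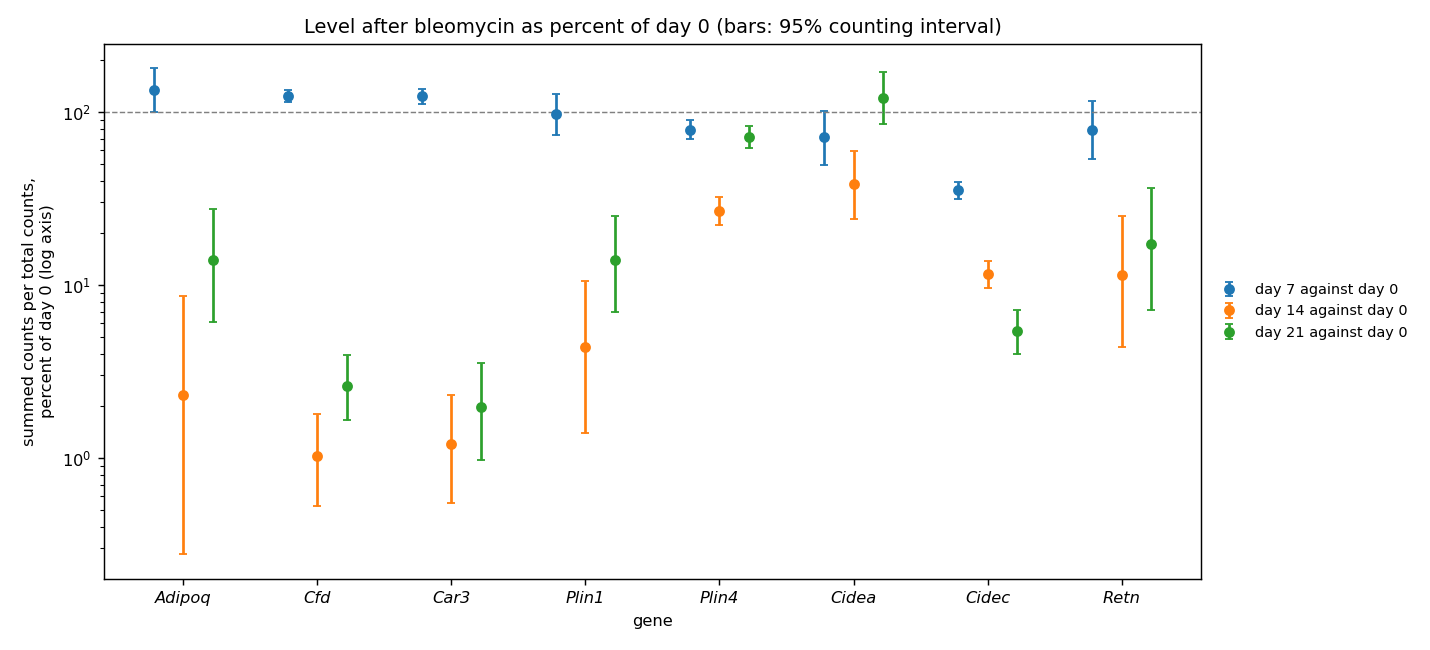
Pooled level of the 8 genes with enough counts at days 7, 14 and 21, in percent of day 0 on a log axis, with 95% counting intervals as bars and 100% as a dashed line. Cidec went from 35.2% to 11.6% and 5.40%, and Cfd from 124% at day 7, where 1198 of its 1528 counts were from replicate 4, to 1.03% at day 14.

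In the fit across all genes, 8 of the 10 genes passed the filter on low counts, and a call needed an adjusted p under 0.05 together with more than a 1.5-fold difference. Of these 8, 1 was called lower at day 7 (Cidec), where 7.36% of all 17457 genes tested were called lower and 8.78% higher. At day 14, 6 were called lower, all but Cidea and Retn in edgeR, against 11.2% of all genes lower and 12% higher. At day 21, 4 were called lower (Cfd, Car3, Plin1 and Cidec) against 10.1% lower and 12.4% higher, and none was called higher on any day. Their median log2 fold change was -0.14, -3.72 and -2.78 at days 7, 14 and 21, where the median of all genes was 0.01, 0.016 and 0.024. All libraries of the later day lay below all of day 0 for 1, 7 and 3 of the 8 genes, and for 13.2%, 14.4% and 16% of all genes. The genes were chosen from these contrasts, so nothing is read from these counts. In limma voom the day 14 and day 21 calls of Cfd and Car3 were lost, at log2 fold changes of -6.00 and -6.42 for Cfd and -5.85 and -5.58 for Car3. The day 21 call of Cfd was also lost without day 21 replicate 2 or replicate 3, at -4.64 and -4.65. The day 7 call of Cidec did not hold once the mitochondrial share entered the fit, where its log2 fold change was -1.30 in place of -1.49, nor in a test against a fold change of 1.5, and its later calls were kept in every alternative. The day 14 call of Plin4 was lost in 7 of 19 alternative fits and the day 21 call of Plin1 in 10 of 17. Over all alternatives their log2 fold changes ran from -2.15 to -1.75 and from -3.48 to -2.25. Calls were also gained. Retn was called lower at day 14 in 3 of 17 alternative fits, DESeq2 among them, and at day 7 in the fits without day 7 replicate 4. At day 21 it was called lower in 1 of 17, the fit of the 2 groups alone. Adipoq was called lower at day 21 in 5 of 17, DESeq2 among them, and Plin4 at days 7 and 21 without both libraries high in cardiac genes.

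Within days, all 8 genes varied more than the median transcript of these lungs, and 6 were above the 95th percentile. Their variation within days was known when they were chosen, and the comparison is with genes of all levels. Nothing is therefore read from these ranks. The SD of log2 CPM around the day means was 2.04 for Cfd, 1.78 for Car3, 1.24 for Retn, 1.16 for Adipoq and 1.13 for Plin1. The median over all genes tested was 0.28 and the 95th percentile 0.80. Plin4 had an SD of 0.99, whereas Cidea and Cidec, at 0.75 and 0.69, were under the 95th percentile. Without day 7 replicate 4 and day 21 replicate 1, the SD was 1.67 for Cfd, 1.5 for Car3, 1.01 for Plin1, 0.90 for Adipoq and 0.82 for Retn, against a 95th percentile of 0.79. Plin4, at 0.53, was then under it. These values used a prior count of 2. With 0.5 instead and all libraries, Retn was at 1.76, Plin4 at 1.01 and the 95th percentile at 1.01.

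After subtraction of the day means, Adipoq correlated across the 15 libraries with Car3 at r = 0.92, with Plin1 at 0.86, with Cfd at 0.85 and with Retn at 0.83. The correlation was 0.70 with Plin4, 0.28 with Cidec and 0.12 with Cidea. Of all genes tested, 0.934% had an r over 0.7 with Adipoq. Points of 1 library share its RNA and depth, so these values are a description. They rested in part on day 0 replicate 1 and day 7 replicate 4, without which r was 0.62 for Car3, 0.54 for Cfd, 0.34 for Retn and 0.29 for Plin1. Cidec correlated with Cfd at 0.03.

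**Figure D3:**
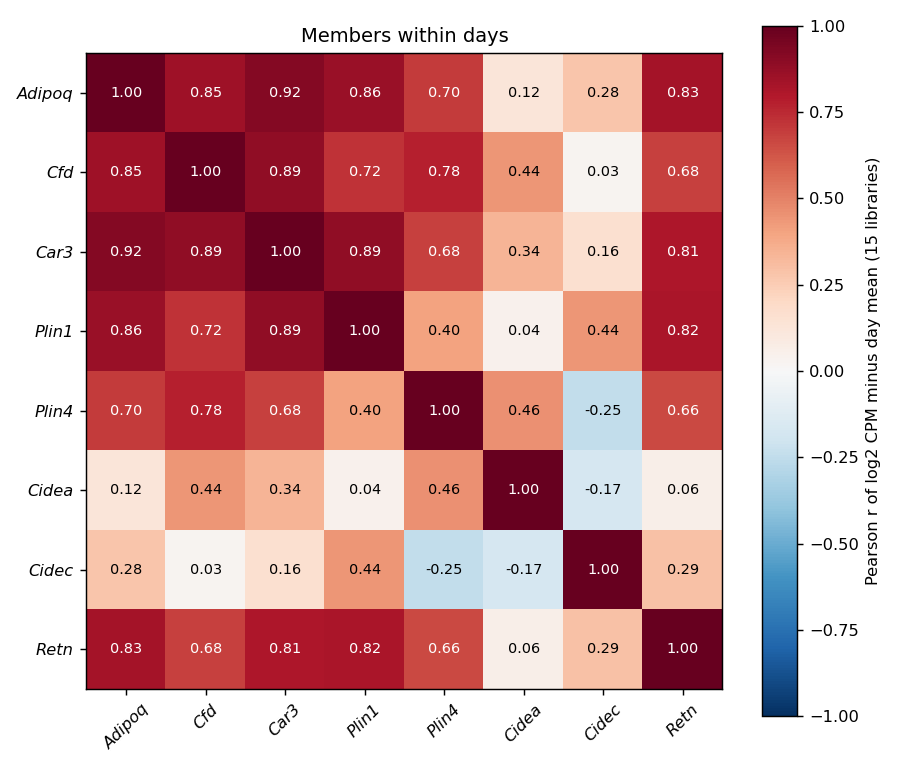
Pearson correlation of log2 CPM minus the day mean for each pair of the 8 genes over 15 libraries, from -1 (blue) to 1 (red). Adipoq, Cfd, Car3, Plin1 and Retn form a block with r between 0.68 and 0.92, Plin4 is partly in it, and Cidec and Cidea have low values with Adipoq. Without day 7 replicate 4, r of Cfd was 0.61 with Plin1 and 0.53 with Retn.

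The genes outside the list whose within-day pattern was most like that of Adipoq, with a mean of at least 1 CPM, were Ttc41 (r = 0.88), Mb (0.88), Ldb3 (0.87), Meg3 (0.86), Thrsp (0.85), Myh6 (0.85), Sln (0.85), 4732471J01Rik (0.84), Gm19144 (0.84) and Casc1 (0.83). Mb, Ldb3, Myh6 and Sln encode proteins of striated muscle. Of the 11 cardiac muscle genes tested, 8 had an r over 0.7 with Adipoq, against 3 of 28 in the white fat list and 0 of 14 in the brown fat list. These fat lists hold none of the 10 adipocyte genes, and among the other 7 of those that were tested, 4 had an r over 0.7. Thrsp is in the white fat list, as is Pck1 (r = 0.87), whose mean of 0.453 CPM was under the limit of 1 CPM. Without day 7 replicate 4 these counts were 1 of 11, with Myh6 at 0.78, 2 of 28, 0 of 14 and 3 of 7. The median r of the cardiac genes went from 0.76 to 0.61. Genes of the mesothelium, which lines the pleura, had a median r of -0.63, or -0.35 without that library. For the 10 genes from Ttc41 to Casc1, r without day 7 replicate 4 was 0.71 to 0.83, and without day 0 replicate 1 as well it was 0.11 for Thrsp and 0.43 to 0.78 for the others.

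The summed level of the 14 cardiac genes was 57.3, 74.9, 319 and 233 CPM in day 0 replicates 1 to 4 and 49.3, 45.2, 79.7 and 699 CPM at day 7. It was 34.3 to 52.4 CPM at day 14 and 820, 29.9 and 32.6 CPM at day 21. Among the 8 libraries of days 0 and 7, the 3 highest in the sum of Adipoq, Cfd, Car3, Plin1 and Retn were also the 3 highest in cardiac genes. At day 14 Myh6, the cardiac myosin heavy chain, was 0.0433 ± 0.0549 CPM (n = 4). Day 21 replicate 1 had the highest cardiac sum, with Myh6 at 321 CPM, while the sum of the 5 fat genes in it was 2.59 CPM. The mesothelial sum was 385, 346, 226 and 226 CPM at day 0 and 414, 529, 347 and 138 CPM at day 7. It was 446 to 992 CPM at day 14 and 462 to 746 CPM at day 21, above every day 0 library, but 1 of its 6 genes was called higher on each of these days, where 12% and 12.4% of all genes were, and the median log2 fold change was 0.36 and 0.14. Msln made up much of the sum, at 261 to 788 CPM at day 14 against 68.6 to 114 CPM at day 0, while Upk3b, at 40.8 to 167 CPM against 76.9 to 137 CPM, overlapped day 0. Tcf21, Fgf10, Limch1, Npnt, Inmt, Pdgfra and Wnt2 were listed for lipofibroblasts, lipid-storing fibroblasts of the alveolar wall. They summed to 3720 to 4410 CPM at day 0, 2210 to 2830 at day 7, 1340 to 2030 at day 14 and 1460 to 2560 at day 21, and 1, 5 and 5 of the 7 were called lower by edgeR. The lipid genes Plin2, Lpl and Pparg, given below, are not in this list and were not called lower on any day. Of the 8 lung cell markers, 1, 5 and 5 were called lower, and Ager, a marker of alveolar type 1 cells, was 1990 to 2990 CPM at day 0 and 2050 to 3530 CPM at day 14. Among all genes 7.36%, 11.2% and 10.1% were called lower on these days. Skeletal muscle genes summed to 4.65 to 22.7 CPM, highest in day 7 replicate 4, and thymus genes to 4.74 to 10.9 CPM. The part of these other cell types in the levels of the fat genes was not tested.

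**Figure D4:**
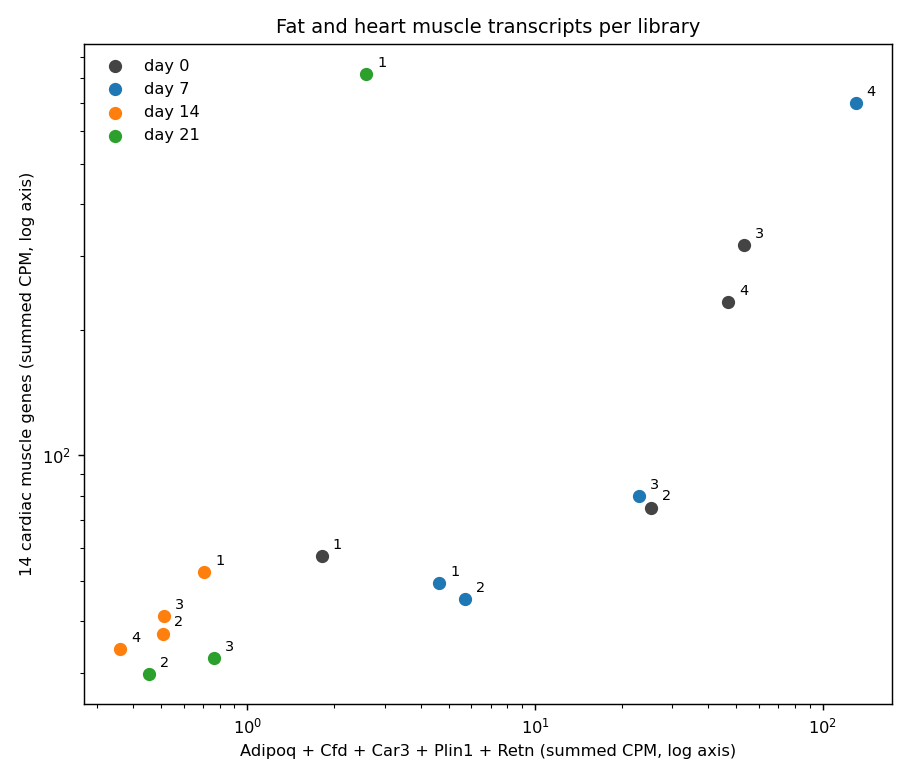
Summed CPM of 14 cardiac muscle genes against the summed CPM of Adipoq, Cfd, Car3, Plin1 and Retn in each library, both on log axes, coloured by day and numbered by replicate. Day 7 replicate 4 is high on both axes at 699 and 130 CPM, and day 21 replicate 1 has 820 CPM of cardiac genes with 2.59 CPM of fat genes.

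Most other genes of white fat were detected in every lung. Of 30 listed, 23 were over 1 CPM in every library, and 28 were tested. At day 7, 7 were lower and 2 higher, at day 14, 12 were lower and 4 higher, and at day 21, 11 were lower and 3 higher, by edgeR's quasi-likelihood test with the thresholds above. The shares of all genes called lower and higher were 7.36% and 8.78%, 11.2% and 12%, and 10.1% and 12.4% on these days. The day 7 count of 9 became 3, all lower, without day 0 replicate 4 or day 7 replicate 1. Without day 7 replicate 2 it was also 3, with 1 lower and 2 higher. It was 5 without day 0 replicate 3, and 1 once the mitochondrial share of each library entered the fit. The median log2 fold change of the 28 genes was 0.09, -0.39 and -0.55. Fabp4, a fatty acid carrier of adipocytes and endothelium, was 12.1 ± 5.28 CPM at day 0 and 24.0 ± 15.3 CPM at day 21 (adjusted p = 0.0842 in edgeR). Pparg, the adipocyte master regulator that alveolar macrophages also use, was 13.3 ± 1.13 CPM (n = 4) at day 0 and 12.6 ± 1.54 CPM (n = 4) at day 14. Neither passed the test on any day.

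Among the white fat genes that fell, Lgals12, a galectin of lipid droplets, went from 3.42 ± 0.922 to 0.541 ± 0.288 CPM at day 14 (log2 fold change -2.65 ± 0.42 SE, edgeR adjusted p = 0.000251), with all libraries below day 0. G0s2, an inhibitor of triglyceride lipase, had a log2 fold change of -1.91 (edgeR adjusted p = 0.00037) and Dgat2, the last enzyme of triglyceride synthesis, of -1.48 (edgeR adjusted p = 0.000315). Adrb3, the beta-3 adrenergic receptor, fell by 2.41 on the log2 scale at day 21 (edgeR adjusted p = 0.000453). Cebpa fell from 128 ± 18.4 CPM (n = 4) to 64.2 ± 12.9 CPM (n = 3) at day 21 (edgeR adjusted p = 0.000457). Pck1, which makes glycerol for triglyceride in fat, had no counts in any day 14 library and 0.900 ± 0.677 CPM at day 0, where 1 or more libraries were at 0 as well.

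Against these, Lpl, the lipase that frees fatty acids from lipoproteins, rose from 268 ± 72.0 CPM (n = 4) at day 0 to 612 ± 154 CPM (n = 4) at day 14 and 951 ± 253 CPM (n = 3) at day 21. Its log2 fold changes were 1.19 ± 0.24 and 1.82 ± 0.25 (SE, edgeR adjusted p = 0.00143 and 0.000104), with all libraries of both days above day 0. Scd1, a desaturase of fatty acids, rose at day 7 by 1.11 on the log2 scale (edgeR adjusted p = 0.0271). Sncg rose to 18.8 ± 9.80 CPM at day 21 from 2.26 ± 0.757 CPM (log2 fold change 3.05, edgeR adjusted p = 0.000147). The white fat list thus held genes that went in both directions while Adipoq, Cfd, Car3, Plin1 and Cidec were all low at day 14.

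Of the 20 brown fat genes listed, 14 were tested and 9 were over 1 CPM in every library. By edgeR 0 were lower at day 7, with 1 lower at an unadjusted p under 0.05, and 1 was higher, 6 were lower and 1 higher at day 14, and 4 were lower and 1 higher at day 21, where 8.78%, 12% and 12.4% of all genes were called higher and 7.36%, 11.2% and 10.1% lower. The day 14 count of 7 became 3 without day 14 replicate 2 and 4 without day 14 replicate 3, and the day 21 count of 5 became 3 without day 0 replicate 2. Dio2, the deiodinase that activates thyroid hormone in brown fat, was the one that rose, from 0.970 ± 0.279 CPM to 6.63 ± 2.13, 5.68 ± 0.722 and 6.65 ± 1.92 CPM. Its log2 fold change was 2.76, 2.54 and 2.76 (edgeR adjusted p = 4.17e-05, 1.83e-05 and 1.81e-05). Its exons overlap a gene on the other strand, and whether counting used strand is not given in the sources used here. Ppargc1a, a coactivator of mitochondrial genes, fell by 0.82 on the log2 scale at day 14 (edgeR adjusted p = 0.0194) and Prdm16, a regulator of brown fat identity, by 0.60 (edgeR adjusted p = 0.0162). Cox8b, a respiratory chain subunit of heart and brown fat, was 0.868 ± 0.401 CPM at day 0 and 0.0922 ± 0.116 CPM at day 14 (edgeR adjusted p = 0.0425), and Elovl3 had no counts at day 0. The summed brown list was 181 to 188 CPM at day 0, 168 to 198 CPM at day 7, 147 to 164 CPM at day 14 and 144 to 156 CPM at day 21. The libraries of days 14 and 21 were thus all below day 0, as they were for 14.4% and 16% of all genes. Gk, Prdm16 and Letmd1, with means of 29.4, 27.6 and 26.7 CPM over all libraries, were the largest parts of this sum. The summed white list overlapped day 0, at 3920 to 5630 CPM at day 0, 3970 to 6920 CPM at day 14 and 3660 to 5160 CPM at day 21.

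Relatives of the 10 genes gave 23 tested of 29 listed, of which 2 were lower and 4 higher at day 7, 7 and 7 at day 14 and 4 and 4 at day 21. The shares among all genes were 7.36% and 8.78%, 11.2% and 12%, and 10.1% and 12.4%. Retnla, a resistin-like protein secreted by macrophages and epithelium in type 2 inflammation, rose from 41.9 ± 8.32 to 830 ± 174 CPM at day 7 (log2 fold change 4.31 ± 0.44 SE, edgeR adjusted p = 2.48e-05). Plin2, the perilipin of most non-adipose cells, rose at days 7 and 14, with log2 fold changes of 0.59 and 0.61 (edgeR adjusted p = 0.0103 and 0.00554), where Plin1 and Plin4 were low at day 14. Ucp3 fell by 3.14 on the log2 scale at day 21 (edgeR adjusted p = 0.000807), and Ucp2, at 636 ± 24.6 CPM at day 0, had log2 fold changes of 0.03, 0.00 and -0.08 (edgeR adjusted p = 0.875, 0.994 and 0.626). Among carbonic anhydrases Car13 rose at day 7, with a log2 fold change of 1.52 (edgeR adjusted p = 8.22e-05), and Car8 fell by 1.13 on that scale at day 14 (edgeR adjusted p = 0.000563).

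Of 12 receptors and partners of the secreted products, 10 were tested, of which 1, 2 and 1 were lower and 3, 2 and 2 higher at days 7, 14 and 21, against 7.36%, 11.2% and 10.1% of all genes lower and 8.78%, 12% and 12.4% higher. The adiponectin receptors Adipor1 and Adipor2, at 223 ± 26.5 and 186 ± 29.8 CPM at day 0, and Cdh13, the cadherin that binds adiponectin, at 41.0 ± 15.1 CPM, did not pass the test on any day. Lepr, the leptin receptor, fell from 123 ± 13.2 CPM to 70.6 ± 15.8, 70.6 ± 17.7 and 70.2 ± 26.3 CPM, with log2 fold changes of -0.80, -0.80 and -0.81 (edgeR adjusted p = 0.0143, 0.00987 and 0.0171) and with all later libraries below day 0. C3ar1, a complement receptor, rose from 5.72 ± 2.17 CPM to 32.4 ± 6.90 CPM at day 7 and 53.7 ± 37.6 CPM at day 14 (log2 fold change 2.50 and 3.23, edgeR adjusted p = 0.000554 and 3.4e-05). Complement C3 was 1120 ± 419 CPM at day 0 and 1930 ± 622 CPM at day 7 (log2 fold change 0.79, edgeR adjusted p = 0.0443). The count of Cfb, the substrate of adipsin, was at most 0.407 ± 0.257 CPM as a day mean and is uncertain, since a second annotated gene shares exon sequence with it on the same strand.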

How the data were processed

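PolyA RNA of 15 whole-lung libraries was analysed from the raw counts per gene that the authors deposited. Per the labels and methods, the authors trimmed reads with TrimGalore, aligned them with HISAT2 2.1.0 to mm10 (GRCm38) and counted with HTSeq 0.6.0, and DESeq2 1.40.2 is named in the submitters' processing notes. The annotation release and strand setting are not given in the sources used here. Of 33340 genes, 33267 had a symbol in GENCODE M21, and genes without one held 0.00889% of the counts. Genes were kept by filterByExpr (17457), scaled by TMM (library scaling that assumes most genes do not change) and tested in edgeR 4.0.16 under R 4.3.3 with glmQLFit and glmQLFTest in 1 fit of 4 day groups, with Benjamini-Hochberg adjustment over all genes tested. The common biological coefficient of variation was 22.8%, and the fit was tested on simulated data with 200 changed genes. CPM used the TMM-scaled totals. TPM used exon-union length. Within-day values used log2 CPM with a prior count of 2. Tests with limma 3.58.1 and DESeq2 1.42.0, other scalings, filters, covariates and left-out libraries were alternatives. The 10 genes and all lists were chosen with earlier results of these data known. Genes named outside the 10 were the called genes of the white, brown, relative and partner lists with the largest changes (at most 6 per list and day), a fixed set of known genes, the 10 most like Adipoq, and a few genes of the marker lists. Of the 10 genes, 8 had a promoter in the RefSeq table. Counts are of reads, so intervals cover counting error only.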

Additional observations from a re-analysis of the deposited data

Results flagged for a closer look

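Of 89 groups of 4 libraries examined, 9 held a library whose gap to the other 3 was past Dixon's critical value, which chance gives in about 5% of groups. This is a description: most of these genes were selected on their variation, they vary together within a library, and nothing is read from the number of such groups. Day 7 replicate 4 was the highest of its day in 7 of them, for Adipoq at 5.40 CPM, Cfd at 71.2 CPM, Car3 at 45.8 CPM, Plin4 at 16.6 CPM, Retn at 2.67 CPM, Lep at 0.119 CPM and the brown fat gene Elovl3 at 0.0594 CPM. The values of Lep and Elovl3 rest on 2 counts and 1 count. Adipoq in day 14 replicate 3, at 0.114 CPM from 2 counts against 0 in the other 3, and Ucp1 in day 0 replicate 4, at 0 CPM against 0.0604 to 0.0647 CPM, are differences of 1 or 2 counts. The next highest day 7 library was replicate 3 for Adipoq, Cfd and Car3, at 0.823, 12.7 and 7.85 CPM.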

How the results depend on the processing

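Counts below are of called genes in both directions. With a test against a fold change of 1.5 (glmTreat), the white fat genes called at days 7, 14 and 21 were 0, 9 and 8 in place of 9, 16 and 14, the brown fat genes at days 14 and 21 were 1 and 1 in place of 7 and 5, and of all genes 703, 1755 and 1755 were called in place of 2818, 4040 and 3924. Once the mitochondrial share entered the fit, 1 white fat gene and 1269 of all genes were called at day 7, and with the adjusted p alone 4365 of all genes. The causes were not tested. Leaving out 1 library gave 3 to 8, 15 to 16 and 11 to 15 white fat genes and 1, 3 to 6 and 3 to 5 brown fat genes at days 7, 14 and 21. Without both libraries high in cardiac genes, a choice made after seeing the data, the counts were 9, 17 and 12 white and 1, 8 and 5 brown fat genes. No fold change of a called gene among the 10 reversed. The correlation of Adipoq with Cfd was 0.71 with a prior count of 0.5. That of Cfd with Plin1 was then 0.46 in place of 0.72, and with Retn 0.46 in place of 0.68.

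Groups share replicate numbers, but same-numbered libraries did not all deviate together (correlation of deviations -0.244 to 0.221), so they share only a number. With the replicate block, 10, 16 and 14 white fat genes and 1, 8 and 4 brown fat genes were called, and the day 21 call of Plin1 was lost. Lep and Ucp1 are limited by depth.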
